A study of Mus musculus with 20 samples.

Results

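Acot1, Cyp4a10, Cyp4a14, Slc25a20, Angptl4 and Pdk4 are 6 genes that PPAR alpha is known to regulate, and their signals were followed in mouse kidney over genotype, diet and days on diet. They were chosen by name. All probe sets that the array annotation assigns to 1 of these genes alone were taken, which gave 9 of the 12422 probe sets on the array. Of the 9, 8 passed the filter on dim signals and could be tested among 8695. Hyp mice, which carry a mutation of the X-linked gene Phex, were fed a low phosphate or a control diet, and so were normal mice, which gave 4 groups of 5 arrays, all labelled C57BL/6J. The Hyp mutation serves as a mouse model for the human disease X-linked hypophosphatemia, in which the kidney wastes phosphate. In each group 3 arrays came from mice fed for 5 days (1 female, 2 male) and 2 from mice fed for 3 days (1 female, 1 male), and each array held RNA pooled from 3 mice. Whole kidney was used, so more of a transcript per cell and more cells that make it cannot be told apart, and the sources used here do not say whether Hyp females carried mutant Phex on one or both X chromosomes.

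PPAR alpha is a nuclear receptor that binds fatty acids and pairs with a retinoid X receptor on DNA to switch on genes of fatty acid use. In proximal tubule, which runs largely on fatty acid oxidation, as in liver, fasting is the best known stimulus of this programme. Its targets act at several steps. Acot1 is a cytosolic thioesterase that releases free fatty acids from acyl-CoA, and Cyp4a10 and Cyp4a14 are microsomal enzymes that hydroxylate the far end of fatty acids. Slc25a20 carries acylcarnitines into mitochondria for oxidation. Angptl4 is secreted and inhibits lipoprotein lipase, and Pdk4 phosphorylates and so inhibits pyruvate dehydrogenase, which spares glucose.

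The promoters of 3 of the 6 genes were in the RefSeq promoter table (build GRCm38.p6), and they are shown because the receptor pair binds a repeat of a short core motif. Each run is the 250 bases before the transcription start, 5′ to 3′ on the gene's strand, at chr12:84009252-84009501 (plus strand) for Acot1, chr9:108661886-108662135 (plus strand) for Slc25a20 and chr6:5496279-5496528 (minus strand) for Pdk4. Capitals mark matches to the relaxed core AGGNCA on the strand shown.
Acot1: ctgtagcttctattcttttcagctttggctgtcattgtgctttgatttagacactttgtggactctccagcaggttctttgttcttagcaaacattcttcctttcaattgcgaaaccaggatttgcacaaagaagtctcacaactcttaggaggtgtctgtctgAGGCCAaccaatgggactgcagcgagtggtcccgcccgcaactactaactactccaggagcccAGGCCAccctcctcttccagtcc
Slc25a20: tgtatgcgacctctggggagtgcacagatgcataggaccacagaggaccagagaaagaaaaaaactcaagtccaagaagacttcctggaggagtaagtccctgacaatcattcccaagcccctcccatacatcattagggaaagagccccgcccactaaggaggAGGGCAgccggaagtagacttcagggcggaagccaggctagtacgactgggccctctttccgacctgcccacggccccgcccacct
Pdk4: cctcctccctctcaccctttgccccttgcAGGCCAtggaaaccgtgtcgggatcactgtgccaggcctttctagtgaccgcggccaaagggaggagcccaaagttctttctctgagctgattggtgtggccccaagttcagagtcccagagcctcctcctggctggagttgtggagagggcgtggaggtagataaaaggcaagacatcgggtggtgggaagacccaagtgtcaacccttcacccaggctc
Both strands were searched for 4 motifs, of which the shorter lie within the longer. The full repeat AGGTCANAGGTCA and its relaxed form AGGNCANAGGNCA occurred in none of the 3 windows, against 0.0335% and 0.338% of 32851 promoter windows of the same length. The exact core AGGTCA also had no match in the 3, against 14.0% of windows. The relaxed core AGGNCA began 86 and 23 bases before the start in Acot1, 86 bases before it in Slc25a20 and 221 bases before it in Pdk4, and 51.3% of all windows hold it at least 1 time. These counts describe the letters in these windows only.
The RefSeq gene table places Cyp4a10 and Cyp4a14 side by side on chromosome 4, and Acot1 on chromosome 12 lies between Acot2 and Acot4. The Cyp4a10 probe set carries the suffix _f_at, which the manufacturer gives to probe sets shared within a gene family, so its signal could include related transcripts.

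The tissue label matched the markers: all 13 measured proximal tubule genes passed the filter, and Slc34a1, the main phosphate transporter of that segment, ranged over 8769.5 to 17165.9. Phex was dim on all arrays (mean 42.2) and did not pass the filter, so it could not check the genotype labels. The 4 arrays titled 05 to 08 (5 days, female) stood apart, with a median rank correlation to the other arrays of 0.895 to 0.934, against 0.943 to 0.969 for the other 16. Their ratio of 3′ to 5′ actin control signals was 1.74 to 2.61, against 1.22 to 1.98 for the other 16. Array 10 (Hyp, low phosphate, 5 days, male) carried high liver transcripts, with Alb at 13097 against at most 1226 on the others and Apoa1 at 1706.4 against at most 549.3. Those 2 next values were both on array 08, the female array of the same group and duration. After them came Alb at 943.9 on array 06 and Apoa1 at 107.3 on array 05. Fat cell transcripts followed the run of title numbers, with Adipoq at 471.7 to 1327.1 on arrays 01 to 10 and 185.8 to 508.1 on arrays 11 to 20. Their part in the results below was not tested. All 3-day arrays were titled 11 to 18 and all 5-day Hyp arrays lay within 01 to 10. In Hyp mice this run and days on diet therefore cannot be told apart. At 5 days 1 male pair was titled 09 and 10 in Hyp mice but 19 and 20 in normal mice, so run and genotype were partly confounded there.

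On low phosphate diet all 6 genes had higher mean signals than on control diet in normal mice, while in Hyp mice the estimated differences were smaller and lay near 0 at 5 days. Neither the contrast between genotypes nor that between durations passed an adjusted test for any of the 6 genes. Signals are the deposited linear intensities, whose trimmed means are nearly equal on all arrays, and log2 differences were taken after adding 38. In normal mice the log2 difference, low phosphate minus control, ran from 0.41 to 1.23 over the 6 genes (median 1.06, against 0.01 over all probe sets). Acot1 alone passed an adjusted p of 0.05 (limma, Benjamini-Hochberg over 8695 probe sets), which is 1 of 6, where 0.184% of all probe sets were called in either direction. All 6 had an unadjusted p under 0.05, as did 8.56% of probe sets. For 3 of 6 (Acot1, Cyp4a10 and Angptl4) every low phosphate array was above every control array, as for 0.805% of probe sets. Angptl4 is counted by its brightest probe set, and another tested Angptl4 probe set, 96118_at, gave 0.03 in normal mice. In Hyp mice the differences ran from 0.15 to 0.45 (median 0.30, against 0.00 over all), and 0 of 6 passed (limma), where 0.15% were called. Without array 14 (low phosphate, 3 days, male) the Hyp differences were 0.23 for Acot1, 0.12 for Cyp4a10, 0.20 for Cyp4a14, 0.05 for Slc25a20, 0.03 for Angptl4 and -0.02 for Pdk4. With all Hyp arrays 1 of 6, Acot1, had an unadjusted p under 0.05, as did 4.59% of probe sets, and the groups of all 6 overlapped (0.219% of probe sets did not overlap and were higher). These genes were chosen with earlier results of the same arrays known, so their shared direction in normal mice is a description.

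**Figure D1:**
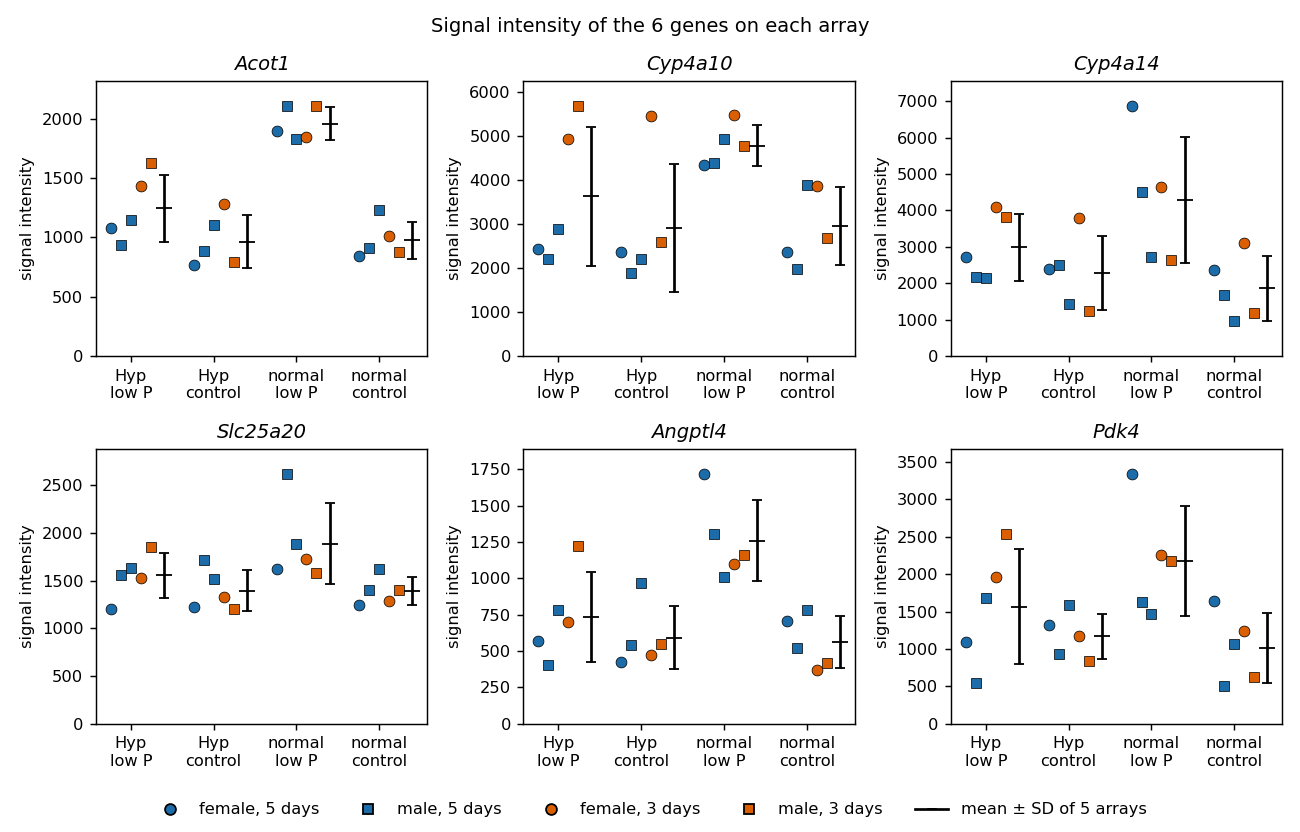
Signal intensity (linear, arbitrary units) of the brightest probe set of each gene on each of the 20 arrays, by group (low P, low phosphate diet), with circles for females, squares for males, blue for 5 days and orange for 3 days; bars are the mean ± SD of 5 arrays. For Acot1 the 5 normal low phosphate arrays sit between 1833.3 and 2109, above all other arrays, whereas the Hyp low phosphate arrays spread with days on diet.

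In the values that follow, female arrays come first and male arrays after them in title order. Acot1 read 1075.8, 934.7 and 1150.6 on Hyp low phosphate arrays after 5 days, against 766.5, 886 and 1101.9 on Hyp control arrays. After 3 days the Hyp values were 1435.6 and 1631.9 on low phosphate and 1282 and 791.3 on control diet. The Hyp groups overlapped at 5 days and did not at 3 days. In normal mice Acot1 read 1897.2, 2108.2 and 1833.3 on low phosphate after 5 days, against 846.5, 909.7 and 1230.5 on control diet. After 3 days the normal values were 1851.1 and 2109 on low phosphate, against 1012.5 and 874 on control diet. Every normal low phosphate array was above every normal control array.
The diet difference of Acot1 was 0.35 ± 0.15 (log2, SE) in Hyp mice and 0.99 ± 0.15 in normal mice, with adjusted p-values of 0.998 and 0.00862 (limma). Acot1 thus rose 1.99-fold in normal mice on low phosphate, with group means of 1960 ± 138 on low phosphate and 975 ± 156 on control diet (SD, n = 5 each). The call in normal mice held with each of the 20 arrays left out in turn (adjusted p = 0.00338 to 0.0499, limma), but not without arrays 05 to 08 (adjusted p = 0.0846) or with the normal arrays fitted alone (adjusted p = 0.06).

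Cyp4a10 read 2419.9, 2207.5 and 2878.3 on Hyp low phosphate arrays after 5 days, against 2366.7, 1883.3 and 2204 on Hyp control arrays. At 3 days Cyp4a10 read 4922.3 and 5672.2 on Hyp low phosphate arrays and 5452.2 and 2590.7 on control diet. The Hyp groups overlapped at both times, and the female control array at 3 days was the highest of its group. In normal mice Cyp4a10 read 4325.5, 4385.9 and 4917.5 on low phosphate after 5 days, against 2357.1, 1971.1 and 3878.4 on control diet. For Cyp4a10 in normal mice at 3 days the signals were 5462.6 and 4767.8 on low phosphate, against 3862.7 and 2680.3 on control diet. As for Acot1, the normal diet groups did not overlap. The diet difference was 0.32 ± 0.21 in Hyp mice and 0.73 ± 0.21 in normal mice (log2, SE), with adjusted p-values of 0.998 and 0.272 (limma).

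Cyp4a14 read 2732.5, 2160.3 and 2144.9 on Hyp low phosphate arrays after 5 days, against 2392.3, 2511.9 and 1424.1 on Hyp control arrays. At 3 days Cyp4a14 was at 4085.8 and 3826.1 on Hyp low phosphate arrays and 3792.5 and 1245.9 on control diet. The 3-day Hyp groups were apart by a small margin, since the female control array was nearly as high as the low phosphate arrays. In normal mice Cyp4a14 read 6872.1, 4501 and 2731.9 on low phosphate after 5 days, against 2376, 1664.5 and 950.3 on control diet. For Cyp4a14 in normal mice at 3 days the signals were 4646.9 and 2638 on low phosphate, against 3113.9 and 1178.6 on control diet. The normal groups overlapped across the sexes at 3 days, although the low phosphate array was the higher one within each sex. The diet difference was 0.45 ± 0.25 in Hyp mice and 1.23 ± 0.25 in normal mice (log2, SE), with adjusted p-values of 0.998 and 0.0644 (limma). In normal mice Cyp4a14 was called in 4 of 15 other settings (limma, adjusted p from 0.0244 to 0.898). It was called with 1 of 20 arrays left out in turn (limma, adjusted p from 0.023 to 0.211). The lowest of the 15, 0.0244, came with the 6 runs of title numbers as a block in place of sex and days. The value there was 1.23.

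Slc25a20, the mitochondrial carrier, read 1199.3, 1557.1 and 1632 on Hyp low phosphate arrays after 5 days, against 1220.8, 1716.8 and 1515.9 on Hyp control arrays. At 3 days Slc25a20 gave 1533.3 and 1858.7 on Hyp low phosphate arrays and 1325.3 and 1206.7 on control diet. The Hyp groups overlapped at 5 days only. In normal mice Slc25a20 read 1625.8, 2620.6 and 1884.9 on low phosphate after 5 days, against 1245.9, 1408.1 and 1619.7 on control diet. Normal mice at 3 days gave 1731.5 and 1580.4 on low phosphate, against 1291.1 and 1402.6 on control diet. Array 02 (low phosphate, 5 days, male) was the highest, and the normal groups did not overlap within either duration. Slc25a20 had the smallest diet difference of the 6 genes, at 0.15 ± 0.12 in Hyp mice and 0.41 ± 0.12 in normal mice (log2, SE), with adjusted p-values of 0.998 and 0.263 (limma).

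Angptl4 is represented by 4 probe sets, of which 96119_s_at is the brightest. On it Angptl4 read 566.8, 403.8 and 783.1 on Hyp low phosphate arrays after 5 days, against 428.2, 543 and 966.1 on Hyp control arrays. After 3 days the Hyp values were 702.9 and 1223.5 on low phosphate and 476.2 and 547.3 on control diet. The Hyp groups overlapped at 5 days and did not at 3 days. In normal mice Angptl4 read 1718.6, 1306.7 and 1011.9 on low phosphate after 5 days, against 708.6, 520.9 and 781.2 on control diet. After 3 days the normal values were 1095.8 and 1158.4 on low phosphate, against 369.2 and 420.4 on control diet. Every normal low phosphate array was above every normal control array. The diet difference was 0.26 ± 0.27 in Hyp mice and 1.14 ± 0.27 in normal mice (log2, SE), with adjusted p-values of 0.998 and 0.109 (limma).
The second probe set, 102114_f_at, carries the same suffix for a shared gene family as that of Cyp4a10. It gave 0.14 ± 0.23 in Hyp mice and 0.83 ± 0.23 in normal mice, with adjusted p-values of 0.998 and 0.205 (limma). The third Angptl4 probe set, 96118_at, gave -0.24 ± 0.28 in Hyp mice and 0.03 ± 0.28 in normal mice, with adjusted p-values of 0.998 and 0.988 (limma). It did not follow the first pair, and its low phosphate arrays ran from 55 to 318.5 in Hyp mice and from 162.6 to 487.4 in normal mice. The fourth, 161518_r_at, did not exceed 62.7 on any array and was left out of the tests.

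**Figure D2:**
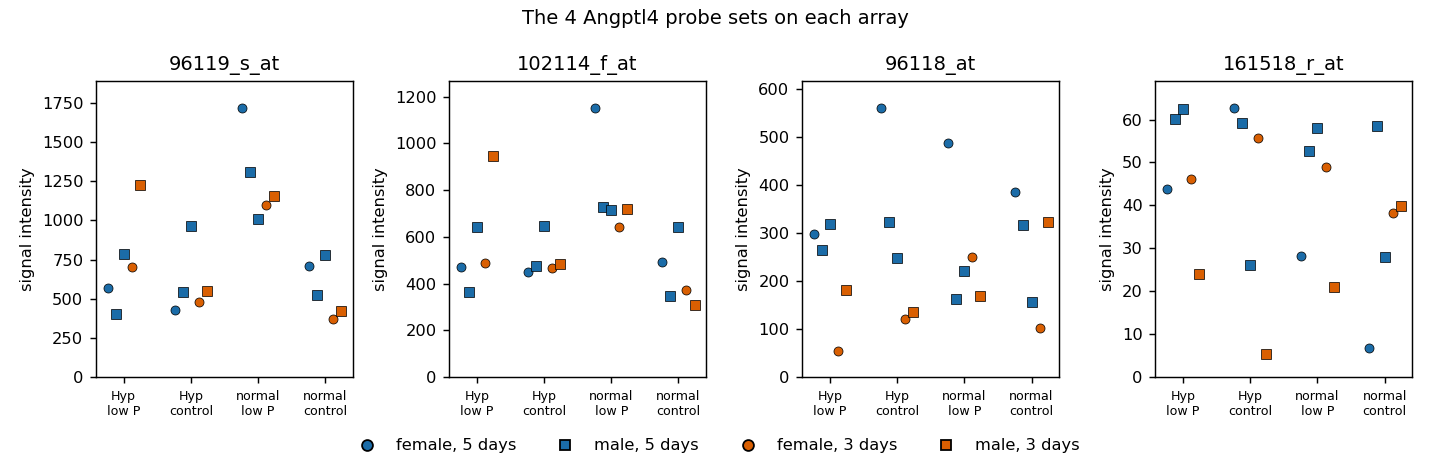
Signal intensity (linear, arbitrary units; each panel has its own axis) of the 4 Angptl4 probe sets on each of the 20 arrays, by group (low P, low phosphate diet), with circles for females, squares for males, blue for 5 days and orange for 3 days. The normal low phosphate arrays lie above the normal control arrays for 96119_s_at, whereas the groups overlap for 96118_at and 161518_r_at.

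Pdk4 read 1091.4, 549.8 and 1676.2 on Hyp low phosphate arrays after 5 days, against 1319.6, 934.8 and 1586.8 on Hyp control arrays. On 3-day Hyp arrays Pdk4 was at 1962.2 and 2532.1 on low phosphate and 1171.2 and 839.9 on control diet. At 3 days both Hyp low phosphate arrays were above both controls, and at 5 days the groups overlapped. In normal mice Pdk4 read 3340.4, 1632.9 and 1464.9 on low phosphate after 5 days, against 1646.4, 504.4 and 1060.8 on control diet. Its 3-day normal values were 2263.2 and 2173.3 on low phosphate, against 1235.5 and 622.9 on control diet. The female arrays of the 5-day normal groups were the highest of their groups, and those groups overlapped. The diet difference was 0.27 ± 0.34 in Hyp mice and 1.14 ± 0.34 in normal mice (log2, SE), with adjusted p-values of 0.998 and 0.274 (limma). Without array 10 the Hyp value of Pdk4 was 0.12.

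Each low phosphate array has a control array of the same genotype, sex, duration and run of title numbers, which gives 5 pairs in each genotype. All 6 genes were higher on low phosphate in 5 of 5 normal pairs, as were 7.13% of all probe sets. Only Acot1 was higher in 5 of 5 Hyp pairs, as were 4.04% of all probe sets. Within the normal pairs the median ratio over the 6 genes was lowest in the male 5-day pair 20 over 19 (1.34) and highest in the male 5-day pair 02 over 01 (2.41). In the Hyp pairs it was 1.08 (female), 0.884 and 1.07 (males) at 5 days, against 1.14 (female) and 2.21 (male) at 3 days. The male 3-day Hyp pair, 14 over 13, thus stood above the other 4 Hyp pairs and was the only one in which all 6 genes were above 1.5. In that pair the ratios were 2.06 for Acot1, 2.19 for Cyp4a10, 3.07 for Cyp4a14, 1.54 for Slc25a20, 2.24 for Angptl4 and 3.01 for Pdk4. In the female 3-day Hyp pair, 18 over 17, Pdk4 (1.68) and Angptl4 (1.48) were higher by more than the other 4 genes, which ranged from 0.903 to 1.16.

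**Figure D3:**
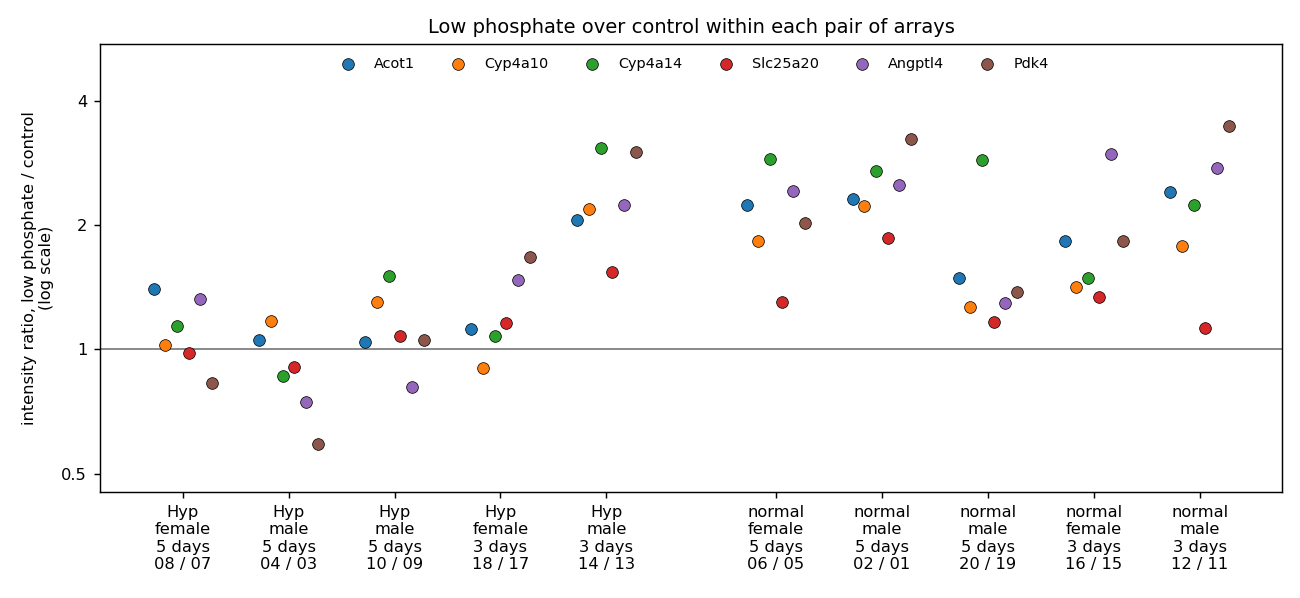
Ratio of low phosphate to control intensity (log axis) for the 6 genes in each of the 10 array pairs, labelled by genotype, sex, days and array numbers. All points of the normal pairs are above 1, while 1 Hyp pair (14 over 13) has all 6 genes between 1.54 and 3.07. The other Hyp pairs lie on both sides of 1, from 0.588 to 1.68.

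The 2 durations were then fitted separately in 1 model with 8 groups of genotype, diet and days, leaving 10 residual degrees of freedom. In Hyp mice the 6 diet differences were -0.31 to 0.21 at 5 days (median 0.08) and 0.41 to 1.14 at 3 days (median 0.70). In normal mice they were 0.49 to 1.47 at 5 days (median 0.95) and 0.29 to 1.43 at 3 days (median 0.95). No gene passed the adjusted threshold in any of the 4 comparisons (limma, adjusted p from 0.137 to 1). At an unadjusted p under 0.05 the counts were 0 of 6 in Hyp mice at 5 days and 5 of 6 in Hyp mice at 3 days. They were 6 of 6 in normal mice at 5 days and 5 of 6 in normal mice at 3 days. Over all probe sets, in the same order, 4.91%, 2.71%, 7.28% and 3.14% had an unadjusted p under 0.05, and 0.0575%, 0.023%, 0.023% and 0% were called. Low phosphate arrays were above control arrays without overlap for 0 of 6 genes in Hyp mice at 5 days and 5 of 6 at 3 days, where 2.6% and 18.7% of probe sets were so. In normal mice the counts were 5 of 6 at both times, where 4.08% of probe sets were so at 5 days and 20.5% at 3 days, so little can be read from the 3-day counts.

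Acot1 differed between diets by 0.20 ± 0.19 in Hyp mice at 5 days and 0.58 ± 0.23 at 3 days, and by 0.96 ± 0.19 in normal mice at 5 days and 1.04 ± 0.23 at 3 days (log2, SE). Cyp4a10 differed by 0.21 ± 0.25 and 0.49 ± 0.30 in Hyp mice at 5 and 3 days, and by 0.78 ± 0.25 and 0.66 ± 0.30 in normal mice. Cyp4a14 differed by 0.18 ± 0.31 and 0.85 ± 0.38 in Hyp mice at 5 and 3 days, and by 1.47 ± 0.31 and 0.85 ± 0.38 in normal mice. The estimates of these 3 enzymes of fatty acid release and hydroxylation were positive in all 4 comparisons, and none passed the adjusted test. In Hyp mice at 5 days their 95% intervals included 0, at -0.20 to 0.60 for Acot1, -0.32 to 0.74 for Cyp4a10 and -0.48 to 0.85 for Cyp4a14. Slc25a20 differed by -0.02 ± 0.14 and 0.41 ± 0.18 in Hyp mice at 5 and 3 days, and by 0.49 ± 0.14 and 0.29 ± 0.18 in normal mice. Angptl4 differed by -0.10 ± 0.30 and 0.82 ± 0.36 in Hyp mice at 5 and 3 days, and by 0.95 ± 0.30 and 1.43 ± 0.36 in normal mice. Pdk4 differed by -0.31 ± 0.40 and 1.14 ± 0.49 in Hyp mice at 5 and 3 days, and by 1.03 ± 0.40 and 1.30 ± 0.49 in normal mice. For these 3 genes the Hyp difference was below 0 at 5 days and above 0 at 3 days, with 95% intervals that include 0 at 5 days.

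**Figure D4:**
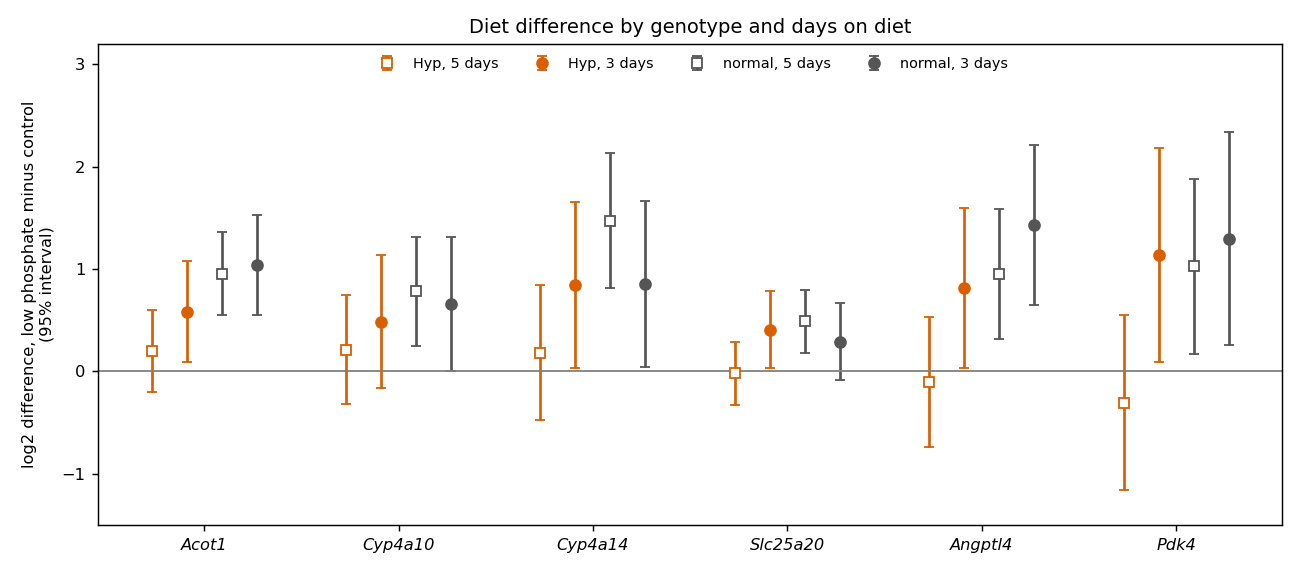
Log2 difference, low phosphate minus control, with its 95% interval, for the 6 genes in Hyp mice (orange) and normal mice (grey) at 5 days (open squares) and 3 days (filled circles). The Hyp 5-day estimates lie between -0.31 and 0.21, and the other 3 comparisons lie between 0.29 and 1.47.

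The change of the diet difference with days, 5 minus 3, was itself tested. In Hyp mice it was negative for all 6 genes, from -1.44 to -0.27, with 1 of 6 (Pdk4, -1.44 ± 0.63) at an unadjusted p under 0.05 and 0 of 6 after adjustment (limma, adjusted p = 1). In normal mice it ran from -0.48 to 0.62, with 0 of 6 at either threshold. Adjusted calls were made for 0% of probe sets in both genotypes, and 2.69% in Hyp mice and 2.53% in normal mice had an unadjusted p under 0.05. With 2 arrays per group at 3 days, each array moved these values. Over the arrays left out in turn, the 3-day Hyp difference ran from 0.22 to 0.95 for Acot1, 0.04 to 0.93 for Cyp4a10, 0.27 to 1.43 for Cyp4a14, 0.25 to 0.57 for Slc25a20, 0.51 to 1.13 for Angptl4 and 0.71 to 1.56 for Pdk4. The low ends came without array 14 or array 13 and the high ends without array 17 or array 18. Without array 14 the 3-day Hyp differences were 0.38 for Acot1, 0.09 for Cyp4a10, 0.27 for Cyp4a14, 0.25 for Slc25a20, 0.51 for Angptl4 and 0.71 for Pdk4. Without array 13, its control, they were 0.22 for Acot1, 0.04 for Cyp4a10, 0.44 for Cyp4a14, 0.30 for Slc25a20, 0.74 for Angptl4 and 1.01 for Pdk4. Without array 10, the array with liver transcripts, the 5-day Hyp differences were 0.16 for Acot1, 0.11 for Cyp4a10, 0.13 for Cyp4a14, -0.04 for Slc25a20, -0.34 for Angptl4 and -0.80 for Pdk4.

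Between genotypes, no difference passed the test on either diet, and the mean differences were near 0 on control diet and negative on low phosphate. On control diet the difference, Hyp minus normal, ran from -0.08 to 0.30 (median 0.03, against 0.02 over all probe sets), with 0 of 6 called (limma, adjusted p from 0.748 to 0.995) and 0 of 6 at an unadjusted p under 0.05, where 0.253% of probe sets were called and 8.55% passed unadjusted. The widest of the 95% intervals, that of Pdk4, ran from -0.42 to 0.99. On low phosphate diet the difference ran from -0.81 to -0.26 (median -0.54, against 0.02 over all), with 0 of 6 called and 4 of 6 at an unadjusted p under 0.05, where 0.357% of probe sets were called and 9.47% passed unadjusted. By limma it was -0.66 ± 0.15 for Acot1 (adjusted p = 0.0781), -0.49 ± 0.21 for Cyp4a10 (0.488) and -0.47 ± 0.25 for Cyp4a14 (0.578). It was -0.26 ± 0.12 for Slc25a20 (0.499), -0.81 ± 0.27 for Angptl4 (0.341) and -0.58 ± 0.34 for Pdk4 (0.628). Acot1 was the only gene of the 6 whose low phosphate groups did not overlap, at 934.7 to 1631.9 in Hyp mice and 1833.3 to 2109 in normal mice, as were 0.311% of probe sets in that direction. Without array 14 the Acot1 difference was -0.79 with an adjusted p of 0.0328, and without array 10 its adjusted p was 0.194 (limma). Without arrays 05 to 08 the differences were -0.63 for Acot1 (adjusted p = 0.321, limma), -0.41 for Cyp4a10, -0.26 for Cyp4a14, -0.22 for Slc25a20, -0.62 for Angptl4 and -0.33 for Pdk4.

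Split by days, the low phosphate differences between genotypes were larger at 5 days than at 3 days, and whether they differ between the durations was not tested. The 5-day comparison includes Hyp array 10 and normal array 20, which come from different runs of title numbers, and the part of the run was not tested. Hyp minus normal ran from -1.17 to -0.46 at 5 days (median -0.88) and from -0.36 to 0.17 at 3 days (median 0.02). At 5 days 6 of 6 genes had an unadjusted p under 0.05, as did 11.4% of all probe sets in either direction, and 0 of 6 were called (limma, adjusted p from 0.121 to 0.391), where 0.104% were called. At 3 days 0 of 6 passed at either threshold, where 0.0575% of probe sets were called and 3.09% passed unadjusted. The 5-day differences were -0.86 ± 0.19 for Acot1, -0.86 ± 0.25 for Cyp4a10, -0.90 ± 0.31 for Cyp4a14, -0.46 ± 0.14 for Slc25a20, -1.17 ± 0.30 for Angptl4 and -0.97 ± 0.40 for Pdk4. Acot1, Cyp4a10 and Angptl4 did not overlap between the genotypes there, as for 3.28% of probe sets that were lower in Hyp mice. Without array 10 the values were -0.90, -0.96, -0.95, -0.48, -1.40 and -1.46 in the same gene order. On control diet the genotype differences ran from -0.29 to 0.39 at 5 days and from -0.09 to 0.34 at 3 days. Their adjusted p-values were 0.693 or more at both times (limma).

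The interaction asks whether the diet difference itself differs between genotypes. It was negative for all 6 genes, from -0.88 to -0.26, but 0 of 6 passed (limma, adjusted p = 1), 3 of 6 had an unadjusted p under 0.05 (Acot1, Cyp4a14 and Angptl4), where 0.046% of all probe sets were called and 3.23% passed unadjusted. The smaller diet difference in Hyp mice is therefore not established for any single gene. Its 95% interval was -1.09 to -0.18 for Acot1, -1.53 to -0.02 for Cyp4a14, -1.68 to -0.08 for Angptl4 and -1.86 to 0.14 for Pdk4. For Cyp4a10 the interval was -1.05 to 0.23 and for Slc25a20 it was -0.61 to 0.09. By days, which was added after the data were seen, the interaction ran from -1.33 to -0.51 at 5 days (5 of 6 at an unadjusted p under 0.05) and from -0.61 to 0.12 at 3 days (0 of 6), with 0 of 6 called at either time. At 5 days 0.0115% of probe sets were called and 3.89% passed unadjusted, and at 3 days 0% and 1.68% did. The difference between the 2 interactions ran from -1.28 to -0.30, with 0 of 6 at either threshold, where 0% of probe sets were called and 2.24% passed unadjusted.

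Averaged over the genotypes, Acot1 rose by 0.67 ± 0.11 (adjusted p = 0.00503) and Cyp4a14 by 0.84 ± 0.18 (adjusted p = 0.0485) on low phosphate (limma). They were 2 of 6, where 0.472% of probe sets were called, and all 6 had an unadjusted p under 0.05, as did 9.75% of probe sets. The other 4 ran from 0.28 to 0.70. The Cyp4a14 call was lost with 17 of 20 arrays left out in turn, as the adjusted p ranged up to 0.122, and without arrays 05 to 08 (0.17).

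Sex was compared across all groups. Cyp4a14 was higher in females by 0.77 ± 0.19 (log2, female minus male, adjusted p = 0.0145, limma), with a median of 3453 on 8 female arrays (2376 to 6872.1) and 2153 on 12 male arrays (950.3 to 4501). It was 1 of 6, where 15.1% of all probe sets were called, and 2 of 6 passed unadjusted, where 32.7% did. The ranges of the sexes overlapped. Arrays 05 to 08, which stood apart, are 4 of the 8 female arrays, and the sex comparison was not refitted without them. Its neighbour Cyp4a10 did not pass (0.14 ± 0.16, limma adjusted p = 0.563). By limma, Pdk4 (0.48 ± 0.24, adjusted p = 0.182) and Slc25a20 (-0.23 ± 0.10, adjusted p = 0.106) did not pass, and Acot1 (-0.04) and Angptl4 (-0.13) were near 0. The diet difference did not pass a test of difference between the sexes for any of the 6 genes (limma, adjusted p = 0.999, female minus male from -0.40 to 0.33), with 0 of 6 at an unadjusted p under 0.05 where 0% of probe sets were called and 3.47% passed unadjusted.

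The 6 genes varied together from array to array. With the means of each sex and duration removed, Pearson's r of log2 signals over the 20 arrays ran from 0.62 (Cyp4a10 with Cyp4a14) to 0.91 (Angptl4 with Pdk4) in the 15 pairs, and these arrays share the diet and genotype groups. Among all single-gene probe sets, the most like Acot1 was Retsat (r = 0.92), a retinol saturase, followed by Angptl4 (0.90) and Cyp4a10 (0.90). Retsat was also the most like Slc25a20 (0.86) and the third most like Angptl4 (0.85). Cyp4a10 was most like Acot1 (0.90), then Ncoa4 (0.89) and Lgals4 (0.89). Cyp4a14 was most like Ccnl2 (0.87), Dclre1a (0.85) and Fbxo21 (0.84), none of them a member. Pdk4 was most like the Angptl4 probe set 102114_f_at (0.94), then Vnn1 (0.85), a pantetheinase, and Tbc1d15 (0.82). Retsat averaged 1666 ± 464 in Hyp mice on low phosphate and 1225 ± 332 on control diet, and 2133 ± 311 in normal mice on low phosphate and 1199 ± 310 on control diet (SD, n = 5 each). Its diet difference was 0.42 ± 0.13 in Hyp mice and 0.83 ± 0.13 in normal mice, with adjusted p-values of 0.761 and 0.0132 (limma).

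The other genes of fatty acid use were read from lists. In the lists of fatty acid uptake, hydroxylation, transport, oxidation, ketogenesis and other known targets together, without the 6 genes, 70 of 76 measured genes were tested. In Hyp mice 0 of 70 were called (limma; 2 higher and 0 lower at an unadjusted p under 0.05), with a median of 0.00 against 0.00 over all probe sets. In normal mice 1 of 70 was called, Retsat (6 higher and 5 lower at an unadjusted p under 0.05), with a median of 0.04 against 0.01 over all. Over all probe sets 0.15% were called and 4.59% passed unadjusted in Hyp mice, and 0.184% and 8.56% in normal mice. With so few calls over all probe sets, 0 called in the short lists below says little about them. Some of the 70 had estimates as large as those of the 6 genes, and the next ones were picked after their values were seen. Slc27a1, a fatty acid transporter, gave 0.41 in Hyp mice and 1.16 in normal mice (adjusted p = 0.998 and 0.274, limma), and in Hyp mice Gpd1, a glycerol phosphate dehydrogenase, gave 0.40. Mitochondrial beta oxidation, the main route of fatty acid breakdown, had 0 of 13 called in either genotype, with medians of -0.03 in Hyp mice and 0.04 in normal mice. Peroxisomal oxidation had 0 of 12 called, with medians of -0.06 in Hyp mice and 0.08 in normal mice. In the carnitine shuttle, where Slc25a20 acts, 0 of the 5 other genes were called, with medians of 0.05 in Hyp mice and 0.25 in normal mice. There Cpt1a, which makes the acylcarnitines, gave -0.06 in Hyp mice and 0.27 in normal mice. Lipid droplet and lipase genes had 0 of 9 called, with medians of 0.23 in Hyp mice and 0.25 in normal mice. Of the list around lipoprotein lipase, the enzyme that Angptl4 inhibits, 0 of the 5 other genes were called, with medians of -0.07 in Hyp mice and -0.09 in normal mice. In that list Apoa1 gave 1.68 in Hyp mice (adjusted p = 0.926, limma), and its highest signals were on arrays 10 and 08. Apoa1 was 1 of the 2 genes of the 70 that were higher in Hyp mice at an unadjusted p under 0.05.

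**Figure D5:**
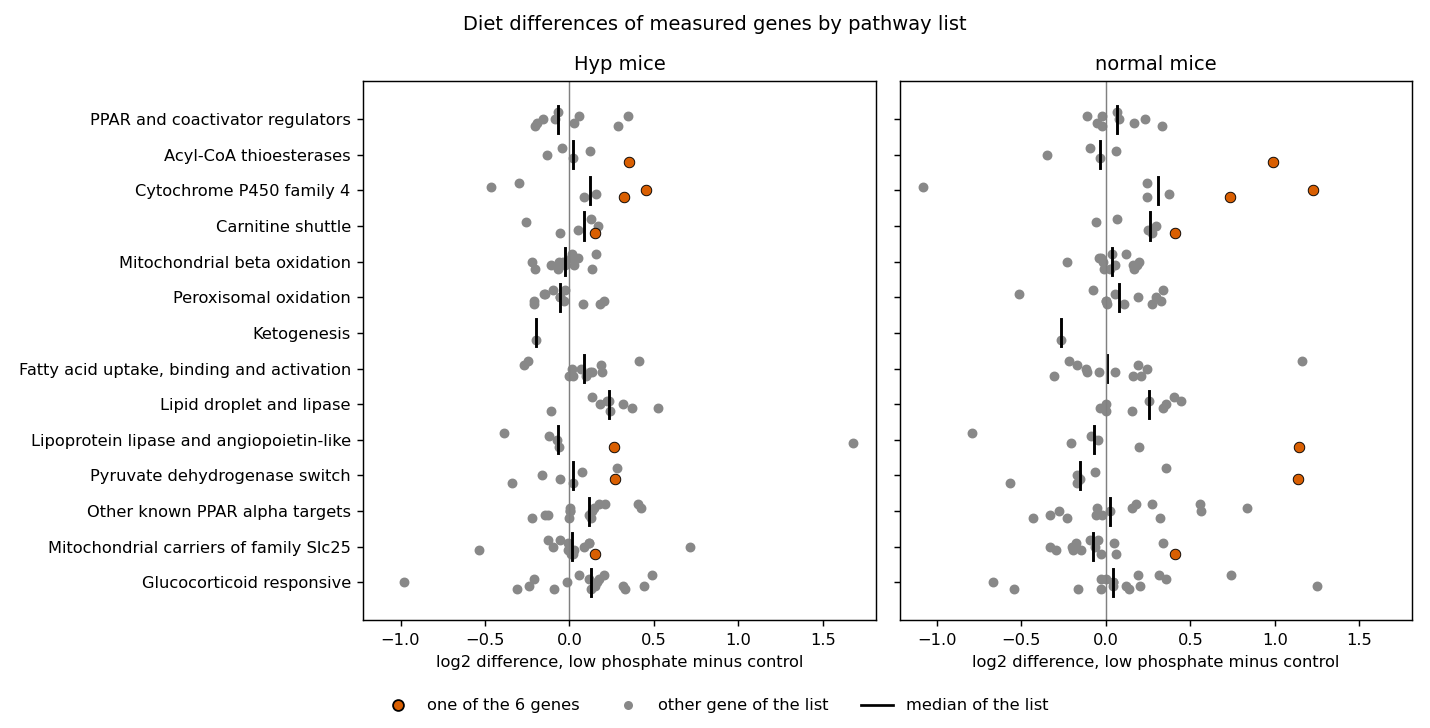
Log2 difference, low phosphate minus control, of each tested gene by pathway list in Hyp mice (left) and normal mice (right), with the 6 genes in orange, the other genes in grey and the list median, which includes any of the 6 genes in the list, as a black bar. In normal mice the 6 genes lie between 0.41 and 1.23, while the medians of the mitochondrial and peroxisomal oxidation lists are 0.04 and 0.08.

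Relatives of the 6 genes were read as well. Of the measured thioesterases, Acot7, Acot8, Acot9 and Acot13 ran from -0.13 to 0.12 in Hyp mice and from -0.35 to 0.06 in normal mice, and none was called. Of the pyruvate dehydrogenase kinases, Pdk1 gave 0.28 in Hyp mice and 0.35 in normal mice (adjusted p = 0.998 and 0.368), and Pdk3 gave -0.34 and -0.57 (0.998 and 0.281, limma). Cyp4a12b gave 0.16 in Hyp mice and 0.38 in normal mice, without a call. The probe set 98353_at, annotated to both Cyp4a31 and Cyp4a32, gave 0.24 in Hyp mice (adjusted p = 0.998). It rose by 0.72 ± 0.12 in normal mice (adjusted p = 0.0178, limma), close to the 0.73 of Cyp4a10, which lies next to Cyp4a31. The receptor gene Ppara gave -0.20 ± 0.14 in Hyp mice and -0.03 ± 0.14 in normal mice, its partners Rxra and Rxrb lay between -0.11 and 0.23, and its coactivator Ppargc1a gave 0.03 in Hyp mice and -0.05 in normal mice, none of them called. Ppard, Pparg and Rxrg were too dim to be tested. Between genotypes on low phosphate 2 of the 70 genes were called, where 0.357% of probe sets were, and both were higher in Hyp mice. They were Cyp4b1 (1.65 ± 0.31, limma adjusted p = 0.0223), an enzyme of the same cytochrome family, and Acsl4 (0.51 ± 0.10, adjusted p = 0.0248), an acyl-CoA synthetase. The 6 genes had negative values in that comparison. Between the sexes, 4 of the 70 were higher in females and 10 were lower (limma), where 15.1% of all probe sets were called in either direction. Of 17 tested genes known to respond to glucocorticoids, 1 was called for diet in Hyp mice and 0 in normal mice. Over all probe sets 0.15% and 0.184% were called. The list medians were 0.13 in Hyp mice and 0.04 in normal mice. The called gene, Pck1, a gluconeogenic enzyme, went the other way. It fell by 0.98 ± 0.16 in Hyp mice (adjusted p = 0.015) and gave -0.67 ± 0.16 in normal mice (adjusted p = 0.123, limma).

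Marker genes of other cell types were set beside these differences. The 11 measured fat cell genes summed to 4631 to 8724 in Hyp mice on low phosphate and 4016 to 10459 on control diet. They summed to 4117 to 8529 in normal mice on low phosphate and 6431 to 9992 on control diet. Lpl, which fat cells and other cells make, ranged over 1992.4 to 7113.1 on the arrays and gave -0.39 in Hyp mice and -0.80 in normal mice (limma adjusted p = 0.395 in normal mice). Without Lpl the other 10 genes summed to 2266.6 to 5516.2 in Hyp mice on low phosphate and 1614.6 to 5321.2 on control diet, and to 2124.5 to 6408.9 in normal mice on low phosphate and 1801.1 to 6048.9 on control diet. That sum was higher on low phosphate in 5 of 5 Hyp pairs and 2 of 5 normal pairs. The single fat cell genes were mixed. Car3 was higher in 4 of 5 Hyp pairs and 5 of 5 normal pairs, and Adipoq in 4 of 5 pairs of each genotype. In normal pairs Cidec and Lipe were higher in 5 of 5, Cidea and Pparg in 4 and Retn in 3. Lep, Fabp4 and Ucp1 were higher in 1 of 5 normal pairs and Lpl in 0. In Hyp pairs Lep was higher in 5 of 5 and Retn, Cidea, Ucp1 and Lipe in 4. Cidec and Pparg were higher in 3 of 5 Hyp pairs, and Fabp4 and Lpl in 2. The part of fat cell transcripts in the diet differences was not tested. The 12 measured liver genes summed to 2408 to 20219 in Hyp mice on low phosphate and 3769 to 5767 on control diet, and to 1235 to 2734 in normal mice on low phosphate and 1599 to 2590 on control diet. The top of the first range is array 10, and Ttr, of the liver list, was itself higher in Hyp mice on low phosphate (2.53 ± 0.17, limma adjusted p = 1.77e-07). The 13 proximal tubule genes summed to 99135 to 120419 in Hyp mice on low phosphate and 104629 to 118339 on control diet, and to 120377 to 138680 in normal mice on low phosphate and 111828 to 126898 on control diet. On low phosphate the highest Hyp sum of proximal tubule genes stood just above the lowest normal sum, and the part of these sums in the genotype difference was not tested.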

How the data were processed

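RNA from kidneys, pooled from 3 mice per array, was measured on 20 oligonucleotide arrays. The deposited values are linear signal intensities per probe set that the authors had scaled, as read from the values, since trimming 2% at each end left means of 500.254 to 500.309 on all arrays. The software used is not named in the labels or files. After 66 control probe sets were removed, 12422 remained, of which the platform annotation gives 1 gene for 10833, several for 396 and none for 1193. All 9 probe sets of the 6 genes matched the RefSeq gene table. log2(intensity + 38) was modelled by limma 3.58.1 (R 4.3.3) over the 8695 probe sets whose mean was at least the 30th percentile (79.4). The offset of 38 is the 20th percentile, and it understates the fold change of dim probe sets.

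The first model had the 4 groups and the combinations of sex and days. The second had 8 groups of genotype, diet and days, with sex within each duration. P-values were adjusted by Benjamini-Hochberg over all tested probe sets with a threshold of 0.05. Sex was fitted in a further model with the 4 groups, sex and days, and diet by sex by adding their product to the first model. Simulated data held differences for diet in normal mice only. On them calls were checked for the first model and mean estimates were recorded for the second. The models for sex were not simulated. For each gene the brightest probe set leads, all 6 genes are named in every diet comparison, and genes from the lists are named where called, as regulators or relatives, or as the 3 most alike in pattern. The 6 genes and the lists were chosen with earlier results of these arrays known. The interactions by days were added after the data were seen. Arrays have no read depth, and their number limits the precision. The spread behind each p-value is that between pools of mice. Alternatives covered the offset, filter, variance model, array weights, model terms, blocks and arrays left out.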

Additional observations from a re-analysis of the deposited data

Results flagged for a closer look

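Dixon's gap test was run for the 9 probe sets in each of the 4 groups of 5 arrays, which makes 36 cases. In 5 of them 1 array lay far from the other 4. The usual chance rate of about 1 in 20 assumes separate, uniform groups. These cases share arrays and mix sexes and durations, so that rate is no exact yardstick here. Array 06 (normal, low phosphate, 5 days, female) was the highest of its group for 2 Angptl4 probe sets, at 1151.4 for 102114_f_at, with the next at 726.4, and at 487.4 for 96118_at, with the next at 249.5. It is 1 of the 4 arrays with the lowest correlation to the others. Array 09 (Hyp, control diet, 5 days, male) was the highest of its group for Angptl4 at 966.1 on 96119_s_at, with the next at 547.3, and at 645 on 102114_f_at, with the next at 481.9. Array 17 (Hyp, control diet, 3 days, female) was the highest of its group for Cyp4a10 at 5452.2, with the next at 2590.7. Without array 17 the change with days of the Cyp4a10 diet difference in Hyp mice was -0.72, against -0.27 with it.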

How the results depend on the processing

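Of 2394 values of the 6 genes recomputed under 37 settings, 18 turned direction, 37 lost a call and 12 gained one, and the cause was not tested. Of the 6 genes, 1 was called for diet in normal mice. The count was 2 with the filter at the median, with trended robust variances and with array set as a block, and 3 with array weights. It was 0 without arrays 05 to 08, with only the groups compared, and within males, females, 3 days or 5 days, where fewer arrays were used, and 1 to 2 with each array left out. For diet averaged over genotypes it was 2. It was 1 with an offset of 1, without the filter, without terms for sex and days, and without arrays 09, 10, 19 and 20. It was 0 without arrays 05 to 08 and within either sex or duration, and 1 to 2 with each array left out. For genotype on low phosphate 0 were called, against 1 with the filter at the median or trended robust variances and 0 to 1 with each array left out. For diet in normal mice at 3 days 0 were called, against 2 with array weights. Over all probe sets the counts for diet in normal mice were 16 in the first model, 3 with only the groups compared and 85 with array weights.

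These differences turned direction. For diet in Hyp mice they were -0.057 for Cyp4a10 within females, and within 5 days -0.020 for Slc25a20, -0.10 for Angptl4 and -0.31 for Pdk4. For genotype on low phosphate within 3 days they were 0.050 for Cyp4a10, 0.17 for Cyp4a14, 0.029 for Slc25a20 and 0.0073 for Pdk4. The interaction of Slc25a20 within 3 days was 0.12. With each array left out, Pdk4 for diet in Hyp mice ranged from -0.017 (without array 14) to 0.54. At 5 days in Hyp mice the ranges were -0.064 to 0.030 for Slc25a20, -0.42 to 0.23 for Angptl4 and -0.80 to 0.026 for Pdk4. The change with days in Hyp mice ranged from -0.72 to 0.17 for Cyp4a10, and the sex difference of Acot1 from -0.098 to 0.0067. Dim probe sets, such as the fourth of Angptl4, could not be assessed.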
